A study of Mus musculus with 6 samples.

Results

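Microglia are the resident macrophages of the brain parenchyma, and a smaller population of border macrophages lines its vessels and meninges. The 35 genes described here mark these cells and were taken by symbol, as known markers, from the deposited table of 22322 genes, and no threshold on measured values was applied. They comprise 31 genes of microglia and other myeloid cells and 4 markers of border macrophages. All 35 were found in the table. A filter on low counts left 14188 genes for testing, among them the 31 microglia and myeloid genes, whereas the 4 border macrophage markers were too low.

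The samples were arcuate nucleus (ARC) tissue cut from frozen brain sections of male mice by laser capture microdissection (LCM), which cuts out an area of a section under the microscope. The mice had eaten normal chow (NCD, 16.5% fat) or high-fat food (HFD, 60% fat) for 16 weeks, starting at 4 weeks of age. There were 3 samples per diet, named NCD1 to NCD3 and HFD1 to HFD3, and the labels state neither their strain nor whether a sample came from 1 mouse or several. The study used C57BL/6J wild-type mice, and it located the Kiss1 neurons of the dissected region in Kiss1-Cre mice crossed to R26R-EYFP reporters. Which of these genotypes the sequenced samples had is not stated in the labels. If these were not separate mice, the p-values measure only the spread between samples, which may be technical. Poly(A) RNA was sequenced. NCD1 was the deepest library (15925648 counts), ahead of NCD2 (9937632) and NCD3 (6882449), and the HFD libraries had 8024664, 10479778 and 5171381 counts. Levels are given as CPM, the count scaled to the library total after TMM normalization, in which 3 counts corresponded to 0.181 CPM in the deepest library and to 0.564 CPM in the shallowest. All cell types of the cut area contributed RNA. Fewer cells of a type and less RNA per cell therefore cannot be told apart.

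Microglia depend on signalling through the CSF1 receptor and on the transcription factors PU.1 (*Spi1*) and IRF8. In the healthy brain they carry a set of homeostatic surface proteins, such as P2RY12, TMEM119 and CX3CR1. Of these, P2RY12 senses nucleotides and CX3CR1 senses a neuronal signal. Fc receptors, complement receptors and the TREM2-TYROBP pair sense antibodies, complement and lipids, and lysosomal proteases such as cathepsin S degrade what the cells take up. The ARC lies beside the median eminence, where the vessels are leaky, and its microglia are often studied in mice fed a fat-rich diet.

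PU.1 recognises a purine-rich box whose core is GAGGAA. Promoter sequences (250 bases before to 50 after the start of a gene) were available for 27 of the 35 genes from the RefSeq table of build GRCm38.p6. On either strand, GAGGAA was found in at least 1 promoter of 17 of these 27 genes (63.0%) and of 31.3% of all 27025 genes in the table. The longer form GAGGAAGT, which contains the shorter one, was found for 6 of the 27 (22.2%) against 3.69% of all genes. The composite letters GGAANNGAA, to which PU.1 and IRF8 can bind together, were found for 2 of the 27 (7.41%) against 9.42%. These matches describe letters, and whether PU.1 binds there was not measured. The stretches below show the box upstream of *Ctss* and *Cd53*, whose HFD samples all lay above the NCD samples, and of *Trem2* and *Inpp5d*, whose diets overlapped. Each is written 5′ to 3′ on the strand of its gene, with the match in capitals. TTCCTC is GAGGAA read on the opposite strand, and the match of *Inpp5d* has the longer form. *Ctss* and *Cd53* also had the longer form, on the opposite strand near the start of the gene, outside the stretches shown. *Ctss* had the composite letters there as well. The stretches lie at chr3:95526597-95526652 (*Ctss*, plus strand), chr3:106790158-106790213 (*Cd53*, minus), chr17:48346336-48346391 (*Trem2*, plus) and chr1:87620267-87620311 (*Inpp5d*, plus).
Ctss: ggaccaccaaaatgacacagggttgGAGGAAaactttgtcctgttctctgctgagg
Cd53: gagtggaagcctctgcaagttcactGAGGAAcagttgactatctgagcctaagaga
Trem2: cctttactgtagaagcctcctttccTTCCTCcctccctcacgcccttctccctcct
Inpp5d: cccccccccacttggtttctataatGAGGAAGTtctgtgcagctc

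Per length of transcript, *Ctss* was the most abundant of the 35 genes, with a mean of 108 FPKM over the 6 samples. *Tyrobp* (49.3 FPKM), *Fcer1g* (39.6), *Selplg* (24.7), *Fcgr3* (24.3) and *Csf1r* (21.2) followed. The transcript length that ties count to FPKM varied between samples for *Selplg* (659 to 1750 bases) and *Csf1r* (1686 to 3894 bases), so the places of these genes in the order are uncertain. The homeostatic markers *P2ry12*, *Siglech*, *Cx3cr1* and *Tmem119* had means of 14.4, 12.2, 11.2 and 10.4 FPKM. The transcription factor genes were lower, with 2.40 FPKM for *Spi1*, 2.12 for *Sall1* and 2.06 for *Irf8*. *C3ar1* was the lowest of the genes tested, at 0.982 FPKM. Each of the defining markers of microglia was thus measured in the tissue.

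The border macrophage markers were close to the limit of detection. *Mrc1*, the mannose receptor, had 11, 7 and 3 counts in NCD1 to NCD3 and 6, 6 and 8 in HFD1 to HFD3. *Lyve1*, a hyaluronan receptor, had 7, 0 and 6 counts under NCD and 3, 2 and 11 under HFD, and *Cd163*, the haemoglobin scavenger receptor, had 4, 11 and 0 under NCD and 3, 8 and 7 under HFD. *Pf4*, a chemokine gene that border macrophages share with platelets, reached 10, 25 and 7 counts under NCD and 7, 6 and 11 under HFD. The diets overlapped for each of these markers, and a difference was not detectable at this depth. White blood cells gave similarly few counts. The 14 markers of monocytes, neutrophils and lymphocytes all fell below the filter and together gave 1.35 to 4.14 CPM per sample. *Nkg7* was the most abundant of them per length, and *Ly6g* and *Ms4a1* had no count in any sample.

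The comparison of the diets asked whether the ARC of HFD mice held more or less of these transcripts. None of the 31 genes passed an adjusted p under 0.05 (edgeR's quasi-likelihood test, Benjamini-Hochberg over all genes tested), a threshold that 8 genes of the whole table (0.0564%) passed. At an unadjusted p under 0.05, 3 of the 31 were higher in HFD (*Ctss*, *Fcgr3* and *Cd53*, 9.68%), as were 1.21% of all genes tested. None was lower, against 1.09% of all genes. DESeq2 also called none of them after adjustment and 3 before it. With the study's threshold, an unadjusted p under 0.05 and a fold change above 1.5, only *Cd53* passed among the 31, against 270 of all genes tested here (1.90%). The HFD samples all exceeded the NCD samples for 6 of the 31 genes (19.4%) and for 3.24% of all genes. The reverse order held for none of the 31 and again for 3.24% of all genes. The log2 fold change was above 0 for 23 of the 31 (74.2%) and for 50.5% of all genes. Its median was 0.22 for the 31 genes and 0.00 for all genes, with a range from -0.28 (*Cyth4*) to 0.64 (*Cd53*).

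**Figure D1:**
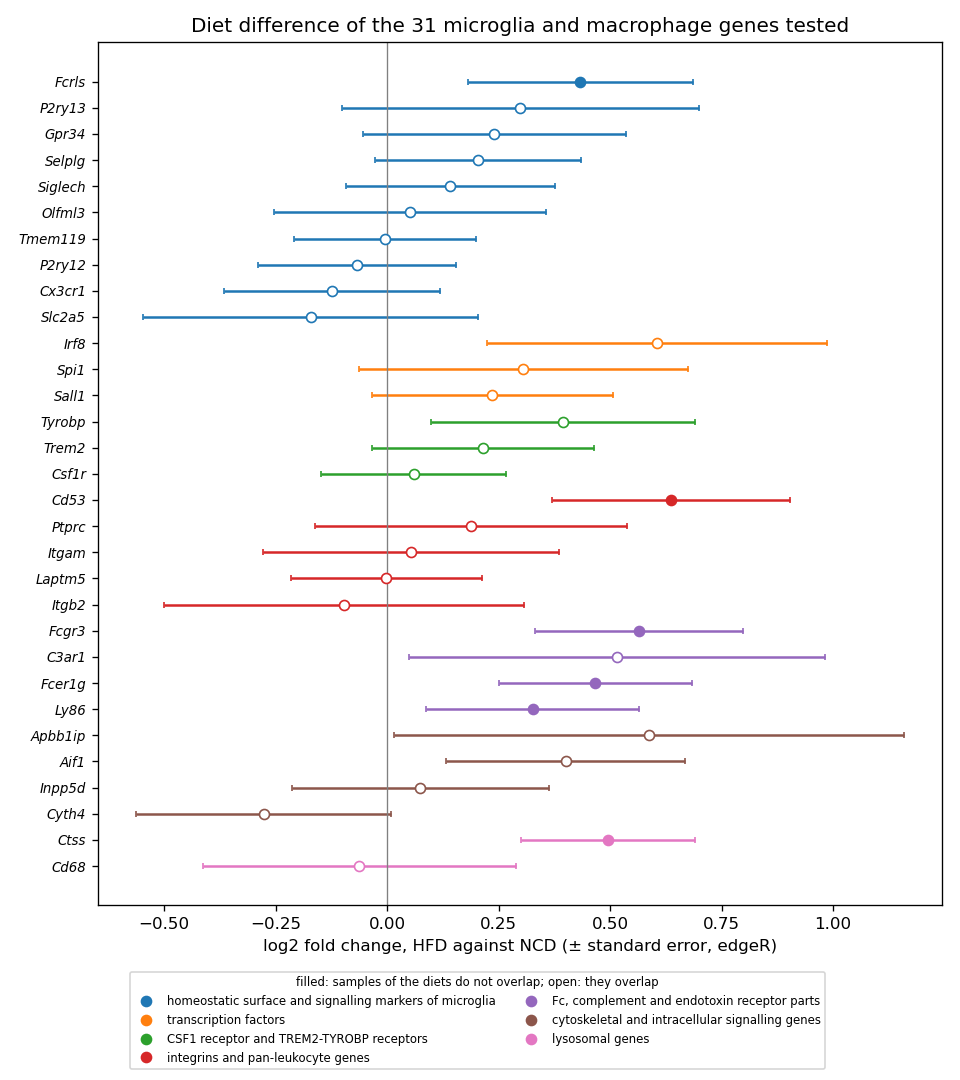
Log2 fold change of HFD against NCD (x axis) with its standard error for each of the 31 genes tested, grouped and coloured by role, with filled points for the 6 genes whose HFD samples all lay above the NCD samples. The Fc, complement and endotoxin receptor genes lie to the right of 0, and *Tmem119* and *Laptm5* lie at 0.

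The lysosomal genes *Ctss* and *Cd68* differed in their values. *Ctss* encodes cathepsin S, a cysteine protease of macrophage lysosomes that processes antigens. It had 112, 135 and 118 CPM in NCD1 to NCD3 and 177, 153 and 184 CPM in HFD1 to HFD3. All HFD samples were above all NCD samples, with means of 122 ± 11.6 CPM (SD, n = 3) in NCD and 172 ± 16.2 CPM (SD, n = 3) in HFD. The log2 fold change was 0.50 (SE 0.19, unadjusted p = 0.0251, adjusted p = 0.999 in edgeR), and the exact permutation test gave 0.1, the smallest p that 3 samples against 3 allow. Leaving out NCD1, NCD3, HFD1 or HFD3 ended the unadjusted call, with log2 fold changes of 0.43 to 0.57 over the 6 samples left out in turn. *Cd68*, which encodes a glycoprotein of the lysosomal membrane and is widely used to stain phagocytic microglia, had 5.42, 7.74 and 4.82 CPM in NCD1 to NCD3 and 4.23, 5.82 and 7.34 CPM in HFD1 to HFD3. Its diets overlapped, and its log2 fold change of -0.06 (SE 0.35) turned positive when NCD2 or HFD1 was left out.

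All 4 genes of Fc, complement and endotoxin receptors had a positive log2 fold change, with a median of 0.49. *Fcgr3*, a low-affinity receptor for IgG, had 24.1, 20.8 and 34.0 CPM under NCD and 37.4, 35.1 and 44.0 CPM under HFD. NCD3 came close to HFD2, but the diets did not overlap, and the log2 fold change was 0.57 (SE 0.23, unadjusted p = 0.0312, adjusted p = 0.999 in edgeR). The unadjusted call was lost without NCD1, NCD2, HFD1 or HFD3 and with log2 library size in the fit (0.41). With 1 sample left out the log2 fold change ranged from 0.42 to 0.79. *Fcer1g* encodes the signalling γ chain that *Fcgr3* needs at the cell surface. It had 18.1, 24.5 and 24.98 CPM under NCD and 29.2, 31.7 and 32.2 CPM under HFD. The HFD samples lay within a narrow range above all NCD samples, and NCD1 was the lowest. Its log2 fold change of 0.47 (SE 0.22) missed the unadjusted threshold (unadjusted p = 0.0505, adjusted p = 0.999 in edgeR). It passed that threshold in 6 of 15 alternatives, among them both fits on FPKM and the fit without NCD3. *Ly86* encodes MD-1, the partner of the toll-like receptor RP105, and had 13.6, 13.4 and 13.7 CPM under NCD against 18.3, 13.8 and 19.2 CPM under HFD. The diets did not overlap, but HFD2 lay just above the NCD samples, and the log2 fold change was 0.33 (SE 0.24). In FPKM, which is scaled without TMM, the diets of *Ly86* overlapped, with HFD2 (11.8 FPKM) below NCD1 (12.5 FPKM). *C3ar1*, the receptor for the complement fragment C3a, rested on HFD3 (8.65 CPM), since the other 5 samples had 2.61 to 4.28 CPM. Summed over the 4 genes, the level was 58.8, 63.0 and 75.7 CPM in NCD1 to NCD3 and 87.5, 84.4 and 104 CPM in HFD1 to HFD3.

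**Figure D2:**
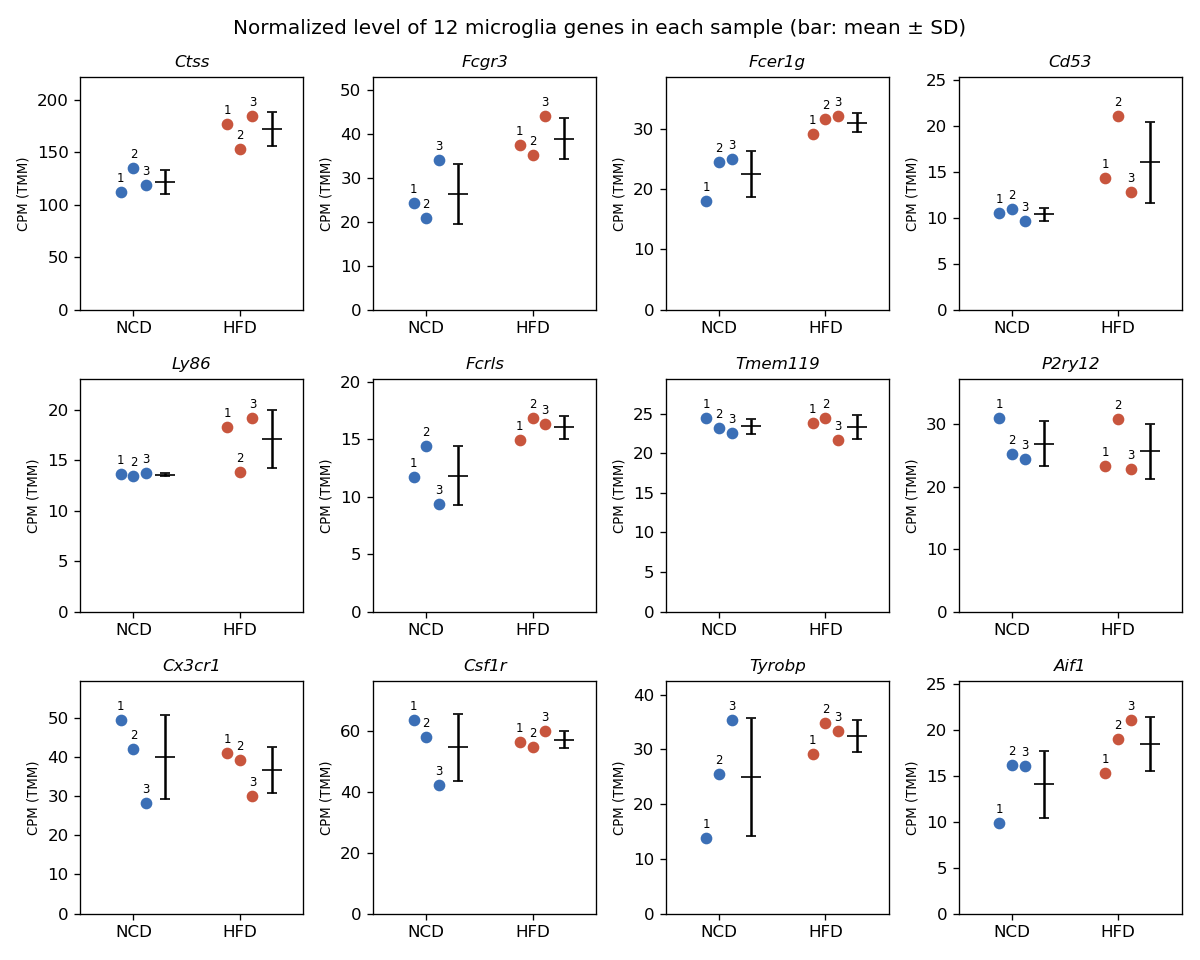
Level in CPM (y axis, from 0) of 12 genes in each NCD and HFD sample, numbered by sample, with mean ± SD (n = 3) beside the points. The first 6 panels show the genes whose diets do not overlap, and *Tmem119*, *P2ry12*, *Cx3cr1* and *Csf1r* show diets that do.

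Among the integrins and pan-leukocyte genes, *Cd53*, a tetraspanin of leukocytes, had the largest log2 fold change of the 31 genes. It had 10.5, 10.99 and 9.63 CPM under NCD and 14.3, 21.1 and 12.8 CPM under HFD. The NCD samples lay close together and below all HFD samples, and HFD2 stood above the other HFD samples. The log2 fold change was 0.64 (SE 0.27, unadjusted p = 0.0339, adjusted p = 0.999 in edgeR). It missed the unadjusted threshold when NCD1, NCD2, NCD3 or HFD2 was left out, with the lowest value, 0.38, without HFD2. *Laptm5*, a lysosomal membrane protein of haematopoietic cells and the most abundant of this group per length, had 29.0, 38.9 and 27.2 CPM under NCD and 33.6, 29.8 and 31.8 CPM under HFD. The HFD samples fell within the NCD range. *Ptprc* (CD45) and the integrin genes *Itgam* (CD11b) and *Itgb2* (CD18) had log2 fold changes of 0.19, 0.05 and -0.10, and the diets overlapped for each.

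The 10 homeostatic markers were divided, with 6 positive and 4 negative log2 fold changes and a median of 0.10. *Tmem119*, a transmembrane protein that separates microglia from other macrophages of the brain, had 24.4, 23.2 and 22.6 CPM under NCD and 23.9, 24.4 and 21.6 CPM under HFD. Its range over the 6 samples, 0.17 on the log2 scale, was the smallest of the 31 genes, and 0.289% of all genes tested had a smaller one. The log2 fold change was -0.0049 (SE 0.20), and its sign depended on the setting. *P2ry12*, the ADP receptor that guides microglial processes to injury, had 31.01, 25.2 and 24.4 CPM under NCD and 23.4, 30.8 and 22.8 CPM under HFD. Each diet had 1 high sample, and the log2 fold change was -0.07 (SE 0.22). *Cx3cr1*, the receptor for the neuronal chemokine fractalkine, had 49.5, 41.9 and 28.3 CPM under NCD and 41.0, 39.1 and 29.9 CPM under HFD. The lowest sample of each diet was its sample 3, the shallowest library of that diet, and the log2 fold change was -0.12 (SE 0.24). In a fit that also held log2 library size the values were 0.05 for *Tmem119*, 0.08 for *P2ry12* and 0.14 for *Cx3cr1*.

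*Fcrls*, an Fc receptor-like scavenger receptor, was the 1 homeostatic marker whose diets did not overlap, with 11.7, 14.5 and 9.33 CPM under NCD and 14.9, 16.9 and 16.4 CPM under HFD. The highest NCD sample, NCD2, was just below the lowest HFD sample, HFD1. The log2 fold change was 0.43 (SE 0.25, unadjusted p = 0.111, adjusted p = 0.999 in edgeR). *Selplg*, the P-selectin ligand and the most abundant homeostatic marker per length, had 28.5, 26.6 and 20.3 CPM under NCD and 29.1, 34.4 and 23.3 CPM under HFD. The diets overlapped, with HFD3 below NCD1 and NCD2. The nucleotide receptor *P2ry13* (0.30), the lysophosphatidylserine receptor *Gpr34* (0.24), the lectin *Siglech* (0.14), the secreted glycoprotein gene *Olfml3* (0.05) and the fructose transporter *Slc2a5* (-0.17) had the log2 fold changes given in parentheses, and all overlapped between the diets. Summed over the 10 markers, the level was 206, 188 and 152 CPM in NCD1 to NCD3 and 188, 206 and 179 CPM in HFD1 to HFD3, so that HFD lay within the NCD range. *P2ry12* and *P2ry13* lie within *Med12l* and *Gpr34* within *Cask*, each on the opposite strand. The annotated span of *Cx3cr1* overlaps *Gorasp1* on the same strand and *Wdr48* on the opposite one. How reads were divided there is uncertain, and the sources do not say whether reads were counted by strand.

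**Figure D3:**
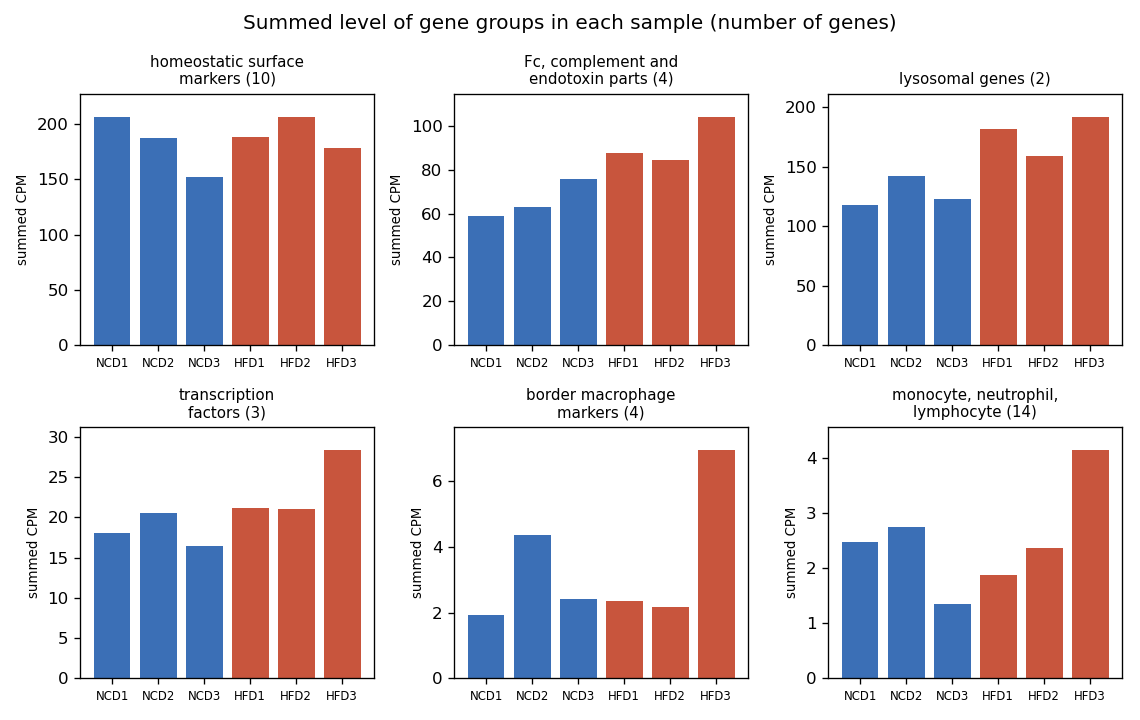
Summed CPM (y axis, from 0) of 6 gene groups in each sample, with the number of genes in parentheses and NCD in blue and HFD in red. The sums of the Fc, complement and endotoxin receptor genes and of the lysosomal genes, the latter mostly *Ctss*, are higher in all HFD samples, the sums of the homeostatic markers overlap, and the sums of border macrophage markers and of monocyte, neutrophil and lymphocyte markers stay under 7 CPM.

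The receptor genes on which microglia depend for survival and lipid sensing overlapped between the diets in counts. *Csf1r*, the receptor for CSF1 and interleukin 34, had 63.5, 57.9 and 42.1 CPM under NCD and 56.3, 54.6 and 60.0 CPM under HFD. The HFD samples fell within the NCD range. The log2 fold change was 0.06 (SE 0.21), and 0.17 with log2 library size in the fit. The deposited FPKM values of this gene gave another picture, with 17.0, 16.6 and 12.5 FPKM under NCD and 24.1, 20.7 and 36.6 FPKM under HFD. Here the diets did not overlap, and limma on log2(FPKM + 1) gave a log2 fold change of 0.75 on that scale (unadjusted p = 0.00884). The transcript length that ties the count to the FPKM of *Csf1r* was 3538 ± 324 bases (SD, n = 3) in NCD and 2195 ± 455 bases (SD, n = 3) in HFD. Of 12049 genes with at least 1 FPKM in every sample, 6 (0.0498%), *Csf1r* included, separated the diets in this length by as much or more. For *Ctss*, *Fcer1g*, *Ly86* and *Cd53* count and FPKM kept nearly the same proportion in the 6 samples.

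*Tyrobp*, the adaptor of TREM2, had 13.8, 25.4 and 35.4 CPM under NCD and 29.1, 34.8 and 33.3 CPM under HFD. The NCD samples spanned the whole range, with NCD1 lowest and NCD3 highest of all 6, and the log2 fold change of 0.39 (SE 0.30) fell to 0.08 without NCD1 and rose to 0.73 without NCD3. *Trem2*, the lipid receptor, had 10.4, 15.5 and 12.9 CPM under NCD and 14.9, 14.4 and 15.6 CPM under HFD. The diets overlapped through NCD2, and the log2 fold change was 0.22 (SE 0.25), 0.06 without NCD1 and 0.37 without NCD2. With log2 library size in the fit, the values were 0.22 for *Tyrobp* and 0.12 for *Trem2*.

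The 3 transcription factor genes had positive log2 fold changes, none with an unadjusted p under 0.05. *Spi1* had 3.97, 4.58 and 3.16 CPM under NCD and 3.48, 5.32 and 5.83 CPM under HFD. HFD1 lay among the NCD samples, and the log2 fold change was 0.31 (SE 0.37). *Irf8* (0.60, SE 0.38) and *Sall1* (0.24, SE 0.27), a factor that keeps microglial identity, also overlapped between the diets. *Irf8* lies within the same-strand gene *Gm20388*, whose own log2 fold change was 0.54 (SE 0.56), and how reads were divided between them is uncertain.

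Of the cytoskeletal and intracellular signalling genes, *Aif1* encodes IBA1, the usual histological marker of microglia. It had 9.87, 16.2 and 16.1 CPM under NCD and 15.3, 19.0 and 21.1 CPM under HFD. HFD1 lay below NCD2 and NCD3, and NCD1 was well below all other samples. The log2 fold change was 0.40 (SE 0.27) and fell to 0.18 without NCD1 and to 0.24 with log2 library size in the fit. The integrin-activating adaptor *Apbb1ip* (0.59, SE 0.57), the lipid phosphatase *Inpp5d* (0.07) and the ARF exchange factor *Cyth4* (-0.28, SE 0.29) overlapped between the diets.

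Over all 35 genes, the summed level was 582, 619 and 543 CPM in NCD1 to NCD3 and 679, 683 and 722 CPM in HFD1 to HFD3, and the diets did not overlap. Without *Ctss* it was 469, 484 and 425 CPM against 502, 529 and 538 CPM, still without overlap. Of the 31 genes tested, 12, 15 and 4 were above their own mean in NCD1 to NCD3, and 20, 19 and 22 in HFD1 to HFD3. Of all 14188 genes tested, 7548, 7399 and 6925 were above their own mean in NCD1 to NCD3, and 7376, 7323 and 7251 in HFD1 to HFD3. NCD3 was the sample with the fewest genes above their mean, both among the 31 genes and among all genes tested. The spread of these genes was that of the table, with a median range over the 6 samples of 0.83 on the log2 scale for the 31 genes and 0.83 for all genes tested.

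**Figure D4:**
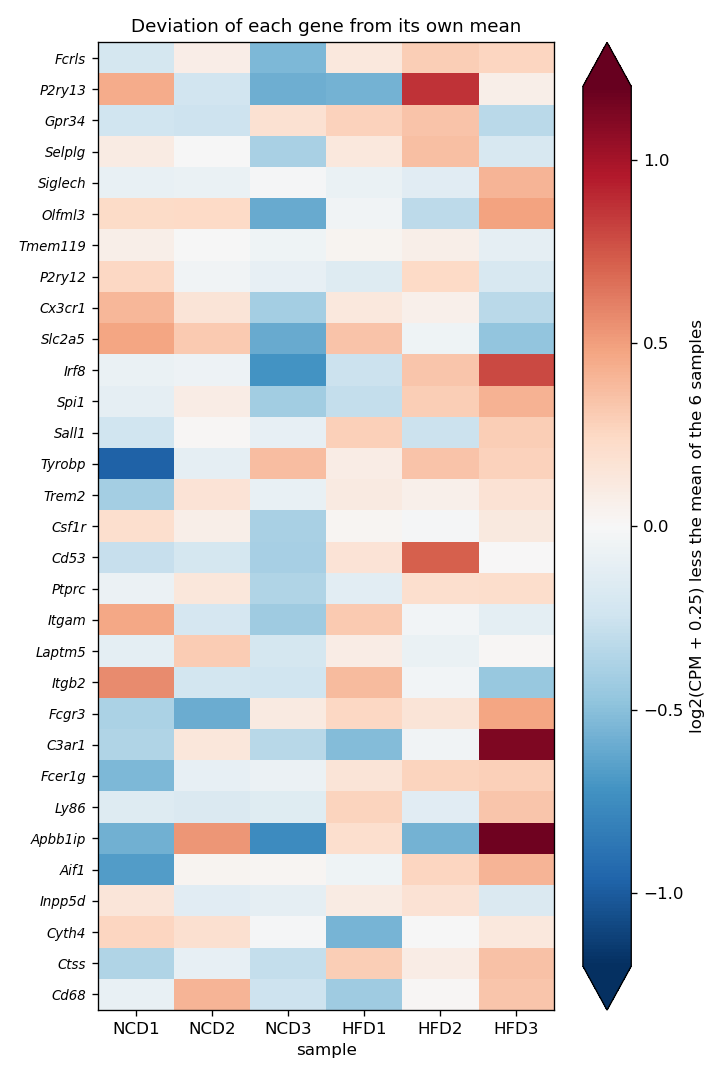
Deviation of each of the 31 genes from its own mean over the 6 samples, on the log2(CPM + 0.25) scale (colour), by sample (x axis) and gene (y axis, in the order of the fold change plot). NCD1 is low for *Tyrobp*, *Aif1*, *Fcer1g* and *Ctss* and high for *Cx3cr1*, *Slc2a5* and *Itgb2*, and the *C3ar1* and *Apbb1ip* values of HFD3 stand out.

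NCD1 stood apart from the other libraries by transcript length as well as by depth. The tested genes were split into 5 classes of equal size by exon length. In the shortest class (204 to 1928 bases), the median deviation of NCD1 from the mean of the samples was -0.25 on the log2 scale, while the other 5 samples lay between -0.01 and 0.12. In that class the median log2 fold change of all genes was 0.12, against -0.06 to -0.01 in the other classes. It held 10 of the 31 genes, with a median of 0.40 and 9 of them positive, and 5 of the 6 genes whose diets did not overlap (all but *Fcrls*). After the median of its class was taken off each gene, the median of the 31 genes was 0.21, and 25 were positive. The 9 positive genes of the shortest class shrank by this step, to 0.38 for *Ctss*, 0.45 for *Fcgr3* and 0.52 for *Cd53*. *Fcer1g* fell to 0.35, *Ly86* to 0.21, *Trem2* to 0.10 and *Selplg* to 0.09. *Cd68*, the negative gene of that class, moved away from 0, from -0.06 to -0.18. Without NCD1 the median was 0.17, and none of the genes had an unadjusted p under 0.05. The log2 fold changes without NCD1 were 0.43 for *Ctss* (SE 0.20), 0.50 for *Fcgr3* (SE 0.25) and 0.63 for *Cd53* (SE 0.30). Apart from these values, the part of transcript length in the differences was not tested.

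**Figure D5:**
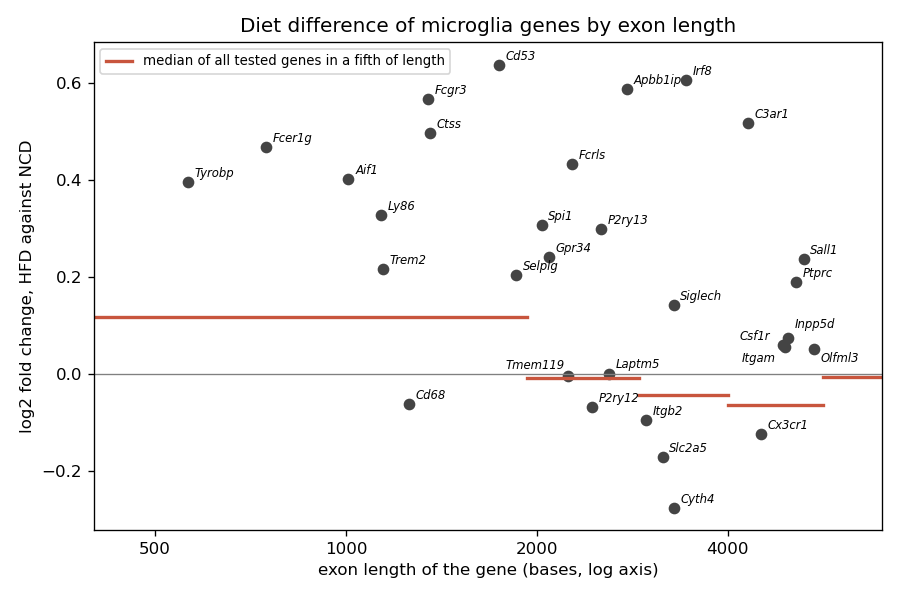
Log2 fold change of HFD against NCD (y axis) against exon length in bases (x axis, log scale) for the 31 genes. Red lines give the median of all tested genes in each of 5 classes of exon length, and 9 of the 10 genes under 1928 bases are positive.

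A list of 30 other genes of microglia, taken from general knowledge, gave values of the same kind. Of the 29 that passed the filter, 22 had a positive and 7 a negative log2 fold change, with a median of 0.16. Of these, 2 had an unadjusted p under 0.05 and were higher in HFD, against 1.21% of all genes tested. Both encode chains of the complement component C1q. Exon length was not taken into account for the genes of this list or of the lists that follow, and its part in their differences was not tested. For 5 of the 29 all HFD samples exceeded the NCD samples, against 3.24% of all genes. No gene of this list or of the lists that follow had an adjusted p under 0.05 in edgeR. *C1qb*, the most abundant of this list per length, had 64.6, 75.4 and 62.9 CPM under NCD and 92.0, 93.6 and 90.1 CPM under HFD. All HFD samples were above all NCD samples, with a log2 fold change of 0.44 (SE 0.18). *C1qa* had a log2 fold change of 0.46 (SE 0.21), with HFD2 below NCD2. *C1qc* (0.40, SE 0.19) did not overlap between the diets, and neither did *Lair1* (0.43), *Cd37* (0.57) and *Nckap1l* (0.27). *C1qa*, *C1qb* and *C1qc* encode chains of the same protein and lie close together on chromosome 4, so they do not count as separate observations. The summed level of the list was 421, 441 and 387 CPM under NCD and 494, 495 and 489 CPM under HFD.

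Signals that act on microglia showed no common direction. Of 12 ligand and receptor genes tested, 6 were positive and 6 negative. The most abundant of them per length, *Cd200*, a neuronal ligand that restrains microglia, had -0.26 (SE 0.28). *Nrros*, which encodes a protein that holds latent TGF-β at the microglial surface, had 2.95, 1.43 and 0.451 CPM under NCD and 6.59, 5.52 and 3.57 CPM under HFD. The diets did not overlap, and its log2 fold change of 1.603 (SE 0.54) passed the unadjusted threshold but rested on low counts (3 in NCD3).

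Genes of activated or lipid-associated microglia were also divided, with 8 positive and 7 negative of 15 tested and a median of 0.03. The other 4 of the 19 listed fell below the filter, so the division does not cover them. They were *Clec7a*, *Cst7*, *Gpnmb* and *Itgax*, with means of 4.33, 1.17, 4.67 and 2.33 counts per sample. *Apoe*, the most abundant of them and chiefly an astrocyte transcript, had 0.19 (SE 0.24). *B2m*, the invariant chain of MHC class I, which many cell types express, had 215, 238 and 229 CPM under NCD and 291, 287 and 362 CPM under HFD, with a log2 fold change of 0.46 (SE 0.20). Its diets did not overlap, and it passed the unadjusted threshold. The lysozyme gene *Lyz2* (0.61, SE 0.28) and the tetraspanin gene *Cd63* (0.39, SE 0.22) were also higher in every HFD sample, without passing it. Of 20 inflammatory mediators and receptors, 9 passed the filter, 7 positive and 2 negative, and *Il18* was the most abundant per length. *Cd14*, the endotoxin co-receptor, had 3.01, 2.24 and 3.01 CPM under NCD and 6.46, 5.13 and 3.76 CPM under HFD, without overlap, and a log2 fold change of 0.90 (SE 0.38), past the unadjusted threshold. The toll-like receptor gene *Tlr2* (0.81, SE 0.41) did not overlap either and missed that threshold. Of 12 other border macrophage genes 4 passed the filter, 3 positive and 1 negative, led per length by *Dab2*. Of 8 proliferation genes 5 passed, 3 positive and 2 negative, led by *Pcna*. The median log2 fold change of these proliferation genes was 0.09.

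Markers of other cells in the tissue were read in the same fit. The 10 neuron markers (6 positive, 4 negative) had a median log2 fold change of 0.04 and the 10 astrocyte markers (6 and 4) one of 0.06, with *Snap25* and *Aldoc* as the most abundant. *Gfap*, the astrocyte filament gene, had a log2 fold change of 0.88 (SE 0.35), and its diets overlapped. The 10 oligodendrocyte markers, led by *Mbp*, had a median of -0.25 (2 positive, 8 negative), with *Opalin* at -0.88 (SE 0.33). The 10 endothelial and mural markers, led by *Itm2a*, had a median of -0.02 (3 positive, 7 negative). Of these, *Ly6c1* was higher in every HFD sample (0.81, SE 0.23), while *Acta2* (-0.83, SE 0.28) and *Cldn5* (-0.48, SE 0.21) were lower in every HFD sample. The 8 tanycyte and ependymal markers, led by *Ccdc153*, had a median of 0.17, with *Col23a1* at 0.91 (SE 0.40). The 6 fibroblast markers, led by *Igf2*, summed to 190 CPM in HFD3 and to 57.8 to 94.8 CPM in the other samples. The 5 red blood cell genes, led by *Hba-a2*, were all negative, with a median of -0.50 and sums of 782, 2488 and 1966 CPM in NCD1 to NCD3 and 1687, 1156 and 824 CPM in HFD1 to HFD3. Of these markers, *Gfap*, *Ly6c1* and *Col23a1* passed the unadjusted threshold as higher in HFD, and *Opalin*, *Acta2* and *Cldn5* as lower. They were 1 of 10 astrocyte, 1 of 10 oligodendrocyte and 1 of 8 tanycyte and ependymal markers, and, of 10 endothelial and mural markers, 1 higher and 2 lower. Of all genes tested, 1.21% were called higher and 1.09% lower, so calls above that share were not particular to the microglia genes. The part of tissue composition in the differences of the microglia genes was not tested.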

How the data were processed

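RNA-seq was done on LCM tissue of the ARC from 3 NCD and 3 HFD samples, grouped by their titles. The titles start with C or H, and C was read as NCD. Per the paper's methods, the authors screened reads against ribosomal sequences with bowtie2, aligned with HISAT2, derived values with StringTie and RSEM, and compared the diets with DESeq2. The submitters' processing notes name the build mm10. Versions, annotation and use of strand are not given in the sources used here. The deposited table holds the authors' read count per gene and sample, not normalized, and their FPKM (fragments scaled to transcript length and to mapped reads). Its 5 columns of group means, log2 fold change, p-value and FDR were not used.

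Identifiers were matched to GENCODE M21 (22267 of 22322). Counts were filtered with filterByExpr, normalized with TMM and tested with edgeR's quasi-likelihood test with diet as the only term, over 14188 genes. The common biological coefficient of variation was 0.244. Log2 CPM for the two-sided exact permutation tests used a prior count of 2. The script was tested on simulated data. Python 3.11.15 with pandas 2.3.3 and matplotlib 3.10.9 made the tables and figures. The fits ran in R 4.3.3 with edgeR 4.0.16, DESeq2 1.42.0 and limma 3.58.1. No molecular identifiers are mentioned in the sources, so reads are not taken as independent molecules, and a limit of 3 counts covers counting error alone. Libraries of 5171381 to 15925648 counts set the precision.

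All 35 genes are named. Values per sample are given for those with an unadjusted p under 0.05 or without overlap, the most abundant of each group and 9 common markers. Of the other lists, genes with an unadjusted p under 0.05 (at most 5 a list) and the most abundant are named. *C1qc*, *Lair1*, *Cd37*, *Nckap1l*, *Lyz2*, *Cd63*, *Tlr2*, *Clec7a*, *Cst7*, *Gpnmb* and *Itgax* were named after their values were seen. The members and lists were chosen with earlier results of these data known, and the count over a list is a description without a test. Alternatives were RLE factors, totals alone, DESeq2, other count filters, limma on FPKM, the replicate number as a block, the log2 total count as a covariate and each sample left out. The correction by length was added after the data were seen. Correlations over the 6 samples are not reported.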

Additional observations from a re-analysis of the deposited data

How the results depend on the processing

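The median log2 fold change of the microglia and macrophage genes tested (25 to 35 by filter) stayed positive under every alternative run, between 0.14 (without HFD3) and 0.24, and no gene of the list reached an adjusted p under 0.05 in any of them. The number with an unadjusted p under 0.05, 3 as reported, was 5 with limma on log2(FPKM + 1) and 5 on log2(FPKM + 0.1), and 0 to 3 with 1 sample left out, with 0 without NCD1 and 1 without NCD2, HFD1 or HFD3. *Csf1r* then had 0.75 and 0.79 on the 2 FPKM scales. The 6 genes without overlap stayed 6 on log2(FPKM + 1), with *Csf1r* in place of *Ly86*. Genes of the whole table with an adjusted p under 0.05, 8 as reported, numbered 19 in DESeq2, 15 among genes with at least 1 count, 5 with limma on either FPKM scale, 15 in the fit with log2 library size and 1 to 16 with 1 sample left out (1 without NCD2, HFD1 or HFD2, 4 without HFD3, 16 without NCD3). Genes past the study's threshold in the edgeR fit used here, 270 in all, numbered 427 among genes with at least 1 count, 179 where the mean was at least 50 counts, and 195 to 982 with 1 sample left out (982 without NCD3, 606 without HFD2). The cause of these moves was not tested, except that the filters change how many genes are tested.

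Signs of differences near 0 turned. *Tmem119* had 0.0039 where the mean was at least 50 counts and 0.052 with log2 library size in the fit, in which *P2ry12* had 0.082 and *Cx3cr1* 0.138. With 1 sample left out, *Tmem119* ranged from -0.043 to 0.043, *P2ry12* from -0.226 to 0.039, *Cx3cr1* from -0.311 to 0.053, *Csf1r* from -0.090 to 0.172 and *Cd68* from -0.25 to 0.16.

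The replicate numbers of the titles are not stated to pair samples. Deviations of same-numbered samples correlated at -0.01, 0.11 and 0.37 for numbers 1, 2 and 3, and not every sample correlated best with its own number. With the number as a replicate block, 17 genes of the table had an adjusted p under 0.05, 376 passed the study's threshold, and 4 of the 31 genes had an unadjusted p under 0.05.

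At 5171381 to 15925648 counts per sample, genes such as *Mrc1* and *Lyve1* fell below the filter of the main fit. With few counts, they were tested in DESeq2 and among genes with at least 1 count. None of the 35 genes had an adjusted p under 0.05 in either. The smallest standard error of a log2 fold change among the 31 genes was 0.19 (*Ctss*).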
